A study of Mus musculus with 29 samples.

Results

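Hearts of mice lacking protein kinase C epsilon (PKCε) were set against hearts with ablation of protein kinase C delta (PKCδ), both taken 4 weeks after aortic banding surgery (transverse aortic constriction, TAC), which puts the left ventricle under a pressure load. The comparison held 7 of the 29 libraries of the series, chosen by their labels and by no measured value. The PKCε hearts (n = 4, all labelled male) carried a germline knockout, so the gene was disrupted in every cell type. The PKCδ hearts (n = 3, 1 labelled male and 2 female) had a postnatal cardiac ablation. The labels name no Cre promoter and no deleted exons for it. Mice of both groups were C57BL/6J and labelled 12 weeks old, and polyadenylated RNA came from the ventricular apex. Unstressed hearts of the same genotypes (n = 3 each, all labelled male) and wild-type hearts 4 weeks after TAC (n = 4, 3 labelled male and 1 female) were used beside them. These were labelled 12 weeks old too. The remaining groups, combined ablation with and without TAC and unstressed wild type, entered the fit to set the spread between libraries.

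PKCδ and PKCε are calcium-independent kinases that are switched on by diacylglycerol, the lipid that phospholipase C makes when receptors coupled to the G protein Gq are engaged by angiotensin II, endothelin or noradrenaline. In the heart both have been studied in growth of the muscle cells and in injury, where they have often been given opposing roles. A pressure-loaded ventricle typically re-expresses fetal genes such as those of natriuretic peptides and slow myosin, and lays down collagen and other matrix.

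Counts in genes ranged from 12246814 to 17314739 in PKCε libraries and from 14257646 to 15108213 in PKCδ libraries. Levels are given in CPM, a gene's counts scaled to a common library size, after TMM scaling for library composition, and each fold change is PKCε over PKCδ on the log2 scale ± SE. Levels are not divided by gene length, so they are compared between groups and not between genes. Transcripts of the sex chromosomes went against labels in both groups. Xist, the RNA that coats an inactive X chromosome, was counted at 119, 115, 92.7 and 7.65 CPM in PKCε libraries 1 to 4, and the Y-linked Ddx3y at 0, 1.77, 9.17 and 28.5 CPM. All 3 PKCδ libraries held both, with Xist at 43.0, 62.9 and 57.9 CPM and Ddx3y at 13.0, 14.2 and 11.2 CPM. For this reason the sex label was left out of the fit, and values with it and with a score of Y-linked transcripts in its place are given below. Outside the 7 libraries, a combined-ablation TAC library (replicate 2) held 31.5 CPM of Prkce against its label, and replicate 2 of the wild-type TAC hearts held 24 CPM, below the 3 others of its group. The gap to the nearest library took up 0.881 of the group's range in the first case and 0.492 in the second. Only the first was flagged as a lone value by Dixon's test. Both libraries touch the spread used by the test and the wild-type values, and below they are called the 2 libraries whose Prkce stood apart. Defining markers of ventricular muscle were abundant in all 7 libraries. The 12 markers summed to 103575 to 118103 CPM in PKCε and 110428 to 117023 CPM in PKCδ libraries.

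Prkce, the gene of PKCε (GRCm38 chromosome 17, 86167785 to 86657919), held 10.8, 7.25, 10.6 and 9.17 CPM in the PKCε-null libraries, against 44.0, 44.7 and 43.1 CPM in the PKCδ libraries. All null libraries lay far below the PKCδ libraries, without reaching 0. Its log2 fold change was -2.22 ± 0.29 (edgeR adjusted p = 0.0018). Prkcd, the gene of PKCδ (chromosome 14, 30595353 to 30626414), held 23.7, 25.9, 24.4 and 24.9 CPM in PKCε libraries, against 17.7, 18.3 and 20.8 CPM in PKCδ libraries. The groups did not overlap, but the difference of 0.39 ± 0.13 did not pass the test (adjusted p = 0.32). These counts cover the whole gene in every cell type of the apex, so they do not check an ablation in cardiac cells whose deleted part is not named.

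**Figure D1:**
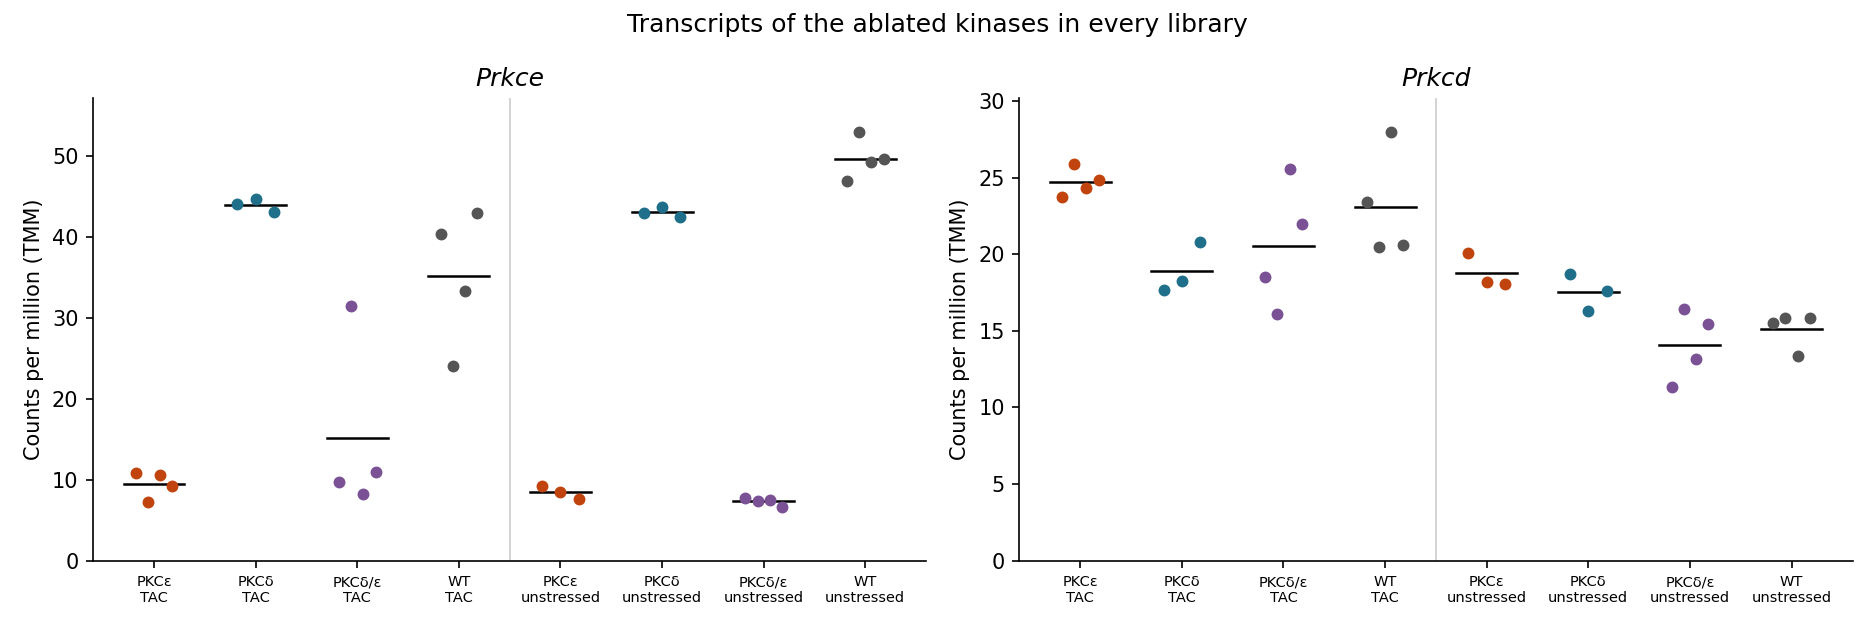
Prkce (left) and Prkcd (right) in CPM after TMM scaling in all 29 libraries, by genotype after TAC and unstressed. Points are libraries and bars are group means. The 4 PKCε TAC libraries lie between 7.25 and 10.8 CPM for Prkce, below the PKCδ TAC libraries at 43.1 to 44.7 CPM.

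Of 15 genes of PKC and related kinases, Prkce was the only one called by edgeR and by DESeq2, and the list's median log2 fold change was -0.07, against 0.01 over all genes tested. Prkca, the gene of the calcium-dependent isoform that is abundant in heart, stood at 0.11 ± 0.09 (adjusted p = 0.86), with 28.2 to 35.3 CPM in PKCε and 28.1 to 29.9 CPM in PKCδ libraries. Prkcb, another calcium-dependent isoform, lay below without overlap, at 6.09 to 7.37 CPM in PKCε and 7.71 to 8.72 CPM in PKCδ libraries (-0.24 ± 0.17, adjusted p = 0.82). Prkch, the closest relative of Prkce, stood at -0.12 ± 0.09 (adjusted p = 0.85). Prkd2, a protein kinase D that PKC phosphorylates, stood at -0.23 ± 0.10 (adjusted p = 0.54). Upstream of the kinases, edgeR called 0 of 28 genes of Gq signalling, phospholipase C and diacylglycerol kinases (3 at an unadjusted p below 0.05, median 0.01). Agtr1a, the angiotensin II receptor gene, came nearest and was the 1 gene of the list that DESeq2 called higher, with 20.6, 21.2, 22.6 and 27.7 CPM in PKCε libraries and 13.5, 14.2 and 18.4 CPM in PKCδ libraries (0.58 ± 0.14, adjusted p = 0.092). It was higher in PKCε hearts without TAC too (1.02 ± 0.15, adjusted p = 0.00019). The α1A-adrenergic receptor gene Adra1a stood at -0.44 ± 0.20 (adjusted p = 0.57), with overlap.

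Few genes separated the null and the ablated hearts after TAC. At an adjusted p below 0.05, 16 of 13765 genes were called (0.116% of those tested), 11 higher in PKCε hearts (0.0799%) and 5 lower (0.0363%). At least 2-fold differences made up 8 of the 16, and 1094 genes had an unadjusted p below 0.05. In 760 genes every PKCε library lay above every PKCδ library (5.52%), and in 701 every one lay below (5.09%). The number of calls differed between settings. It was 0 when only the 15 TAC libraries were fitted by edgeR (922 genes at an unadjusted p below 0.05), 56 with the 7 libraries alone, 59 without the 2 libraries whose Prkce stood apart, and 70 with DESeq2. With the sex label as a term 2 genes were called, Prkce and Wdr92 (adjusted p = 0.04 each), and with the Y-linked score 40, all 16 among them. Without PKCδ library 1, 2 or 3 the count was 3, 2 and 9, and without PKCε library 1 or 2 it was 27 and 9. All 16 kept their direction under each of the 17 alternatives, while Prkce and Wdr92 alone stayed called whichever of the 7 libraries was left out. Irx5, Fras1 and 2610507I01Rik were called in 5 of these 7 fits, Ntn1 and Clk1 in 4, and Fn1 and Gpr17 in 3. Myh7, Myl4 and Cyp2d22 were called in 2, Rsad1 and Lrrc2 in 1 and Asap2 in 0.

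**Figure D2:**
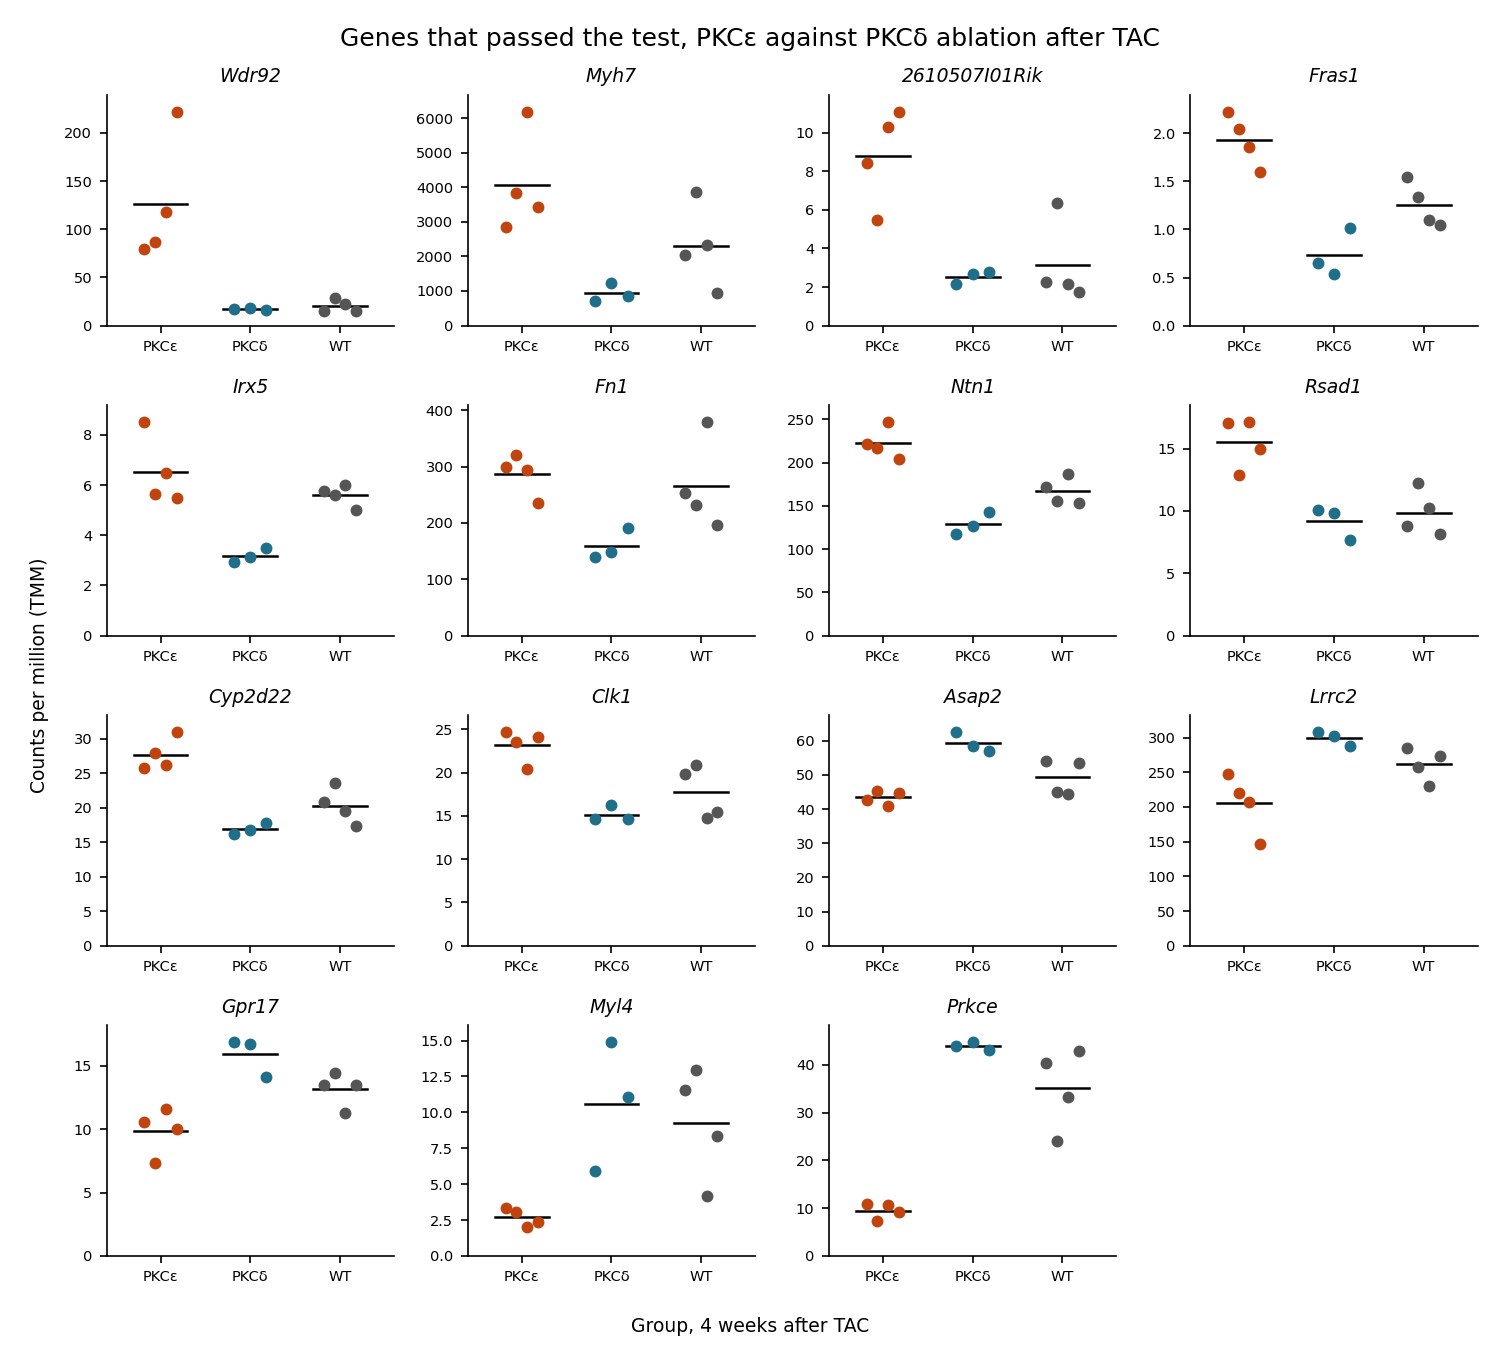
Levels in CPM after TMM scaling of 15 of the 16 genes that passed the test, in PKCε, PKCδ and wild-type hearts after TAC. Points are libraries, bars are group means, each panel has its own axis from 0, and panels run from the highest to the lowest fold change. In all 15 the PKCε and PKCδ points do not overlap, as in Myl4 at 2.0 to 3.37 against 5.90 to 14.9.

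The myosin genes Myh7 and Myl4 of the fetal and stress list differed in opposite directions. Myh7, the slow β-myosin heavy chain that pressure load brings back in mouse ventricle, held 2851, 3824, 6173 and 3432 CPM in PKCε libraries, against 708, 1221 and 860.5 CPM in PKCδ libraries. Every PKCε library lay at more than any PKCδ library, and library 3 was highest. The log2 fold change was 2.13 ± 0.40 (adjusted p = 0.032). Myh7 (chromosome 14, 54970684 to 54994626) shares exon bases with 3 opposite-strand RNA genes, whose reads cannot be told apart without strand. Myl4, the essential light chain of atrial and embryonic ventricular muscle (chromosome 11, 104546017 to 104587215), held 3.37, 3.05, 2.0 and 2.39 CPM in PKCε libraries, against 5.90, 14.9 and 11.1 CPM in PKCδ libraries. It was lower by -1.96 ± 0.38 (adjusted p = 0.034), and its PKCδ values differed among themselves more than its PKCε values. Without PKCδ library 2, the highest, the difference was -1.64 and no longer passed (adjusted p = 0.28). Over libraries labelled male alone, which leave PKCδ library 1 only, it was -1.11. Myl4 is also a marker of atrial muscle, and the part of atrial tissue in its values was not tested. Of 13 atrial and conduction genes 7 were negative and 6 positive, with Sln, Myl7 and Nppa given below.

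The 250 bases before 1 annotated start of each gene are shown because they are the pair of contractile genes that passed the test with opposite signs. They are from RefSeq (GRCm38.p6), on the gene's strand, 5′ to 3′. Both starts lie inside the spans printed above, 4646 bases from the 5′ end of the Myl4 span and 77 bases from that of Myh7. Capitals mark matches to the letters TATANA of a TATA box.
Myh7, chr14:54994550-54994799, minus strand: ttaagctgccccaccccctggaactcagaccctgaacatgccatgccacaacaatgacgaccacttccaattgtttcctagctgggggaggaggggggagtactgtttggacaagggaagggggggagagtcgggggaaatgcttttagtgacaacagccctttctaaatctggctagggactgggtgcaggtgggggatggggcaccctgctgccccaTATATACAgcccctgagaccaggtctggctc
Myl4, chr11:104550413-104550662, plus strand: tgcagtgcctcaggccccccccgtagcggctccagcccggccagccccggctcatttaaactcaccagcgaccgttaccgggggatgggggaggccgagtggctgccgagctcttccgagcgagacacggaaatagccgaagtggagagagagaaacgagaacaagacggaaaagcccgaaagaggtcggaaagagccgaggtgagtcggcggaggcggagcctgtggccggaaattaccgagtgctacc
The Myh7 window holds 2 overlapping matches, 31 and 29 bases before the start, and the Myl4 window holds none. The table lists 1 window for Myl4 and 2 for Myh7, of which the one with most annotated starts is shown. Both strands were searched for TATANA, the AP-1 site TGANTCA that phorbol esters act through, the cyclic AMP element TGACGTCA, the muscle M-CAT element CATTCC, the GATA site AGATAA, and the CArG box. Of 32841 promoter windows of this length, 22.6% held TATANA, 6.75% the AP-1 site, 1.55% the cyclic AMP element, 12.6% the M-CAT element, 9.99% the GATA site and 1.47% the CArG box. Of the 16 called genes 6 had a window in the table, and among these the AP-1 letters stood in that of Rsad1 and a TATANA also in that of Lrrc2. A match is a description of letters and shows no binding.

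Of the 27 genes of the stress and fetal list edgeR called 1 higher and 1 lower, the myosin genes above, and the median was 0.08. DESeq2 called these and, as a second higher gene, Nppa. Nppa, the atrial natriuretic peptide gene, held 5275, 1559, 2515 and 1195 CPM in PKCε libraries and 471, 677 and 1415 CPM in PKCδ libraries. The groups overlapped between PKCε library 4 and PKCδ library 3 (1.63 ± 0.47, edgeR adjusted p = 0.24). Nppb, its ventricular relative, held 559, 285, 569 and 412 CPM in PKCε libraries and 395, 344 and 358 CPM in PKCδ libraries (0.32 ± 0.33, adjusted p = 0.91). Acta1, skeletal α-actin, ranged widely among PKCε libraries, at 6641, 4260.3, 3209.8 and 1906 CPM, around the PKCδ values of 5268, 5237 and 4469.6 CPM (-0.32 ± 0.43, adjusted p = 0.94). Ankrd1, a stress-induced ankyrin repeat gene of muscle, stood at 0.23 ± 0.34 (adjusted p = 0.94). Myh6, the fast adult α-myosin, stood at -0.03 ± 0.08 (adjusted p = 0.97), with 44346 to 54554 CPM in PKCε and 51095 to 53478 CPM in PKCδ libraries. Lmcd1, a LIM protein gene of hypertrophy in mouse, stood at -0.23 ± 0.09 (adjusted p = 0.46).

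Of 28 sarcomere genes Myh7 was the only one called by edgeR and by DESeq2 (median -0.01). Tpm1, cardiac tropomyosin, lay below without overlap, at 7986, 8119, 8750.3 and 8644 CPM in PKCε and 10069.9, 9695 and 9232 CPM in PKCδ libraries (-0.21 ± 0.08, adjusted p = 0.42). Myom2, an M-band protein, lay above without overlap (0.42 ± 0.17, adjusted p = 0.47). Myh2, a fast skeletal myosin gene, held 4.70, 2.99, 18.1 and 9.40 CPM in PKCε libraries and 0.194, 0.200 and 0.0676 CPM in PKCδ libraries. The separation was wide, yet the spread was too, and it did not pass edgeR's test (5.73 ± 1.44, adjusted p = 0.14). In unstressed hearts Myh2 was higher by 7.54 ± 1.52 (adjusted p = 0.011). Of the 12 skeletal muscle genes tested edgeR called 0 (3 at an unadjusted p below 0.05) and the median was 0.14, while DESeq2 called 1 higher, Myh2. In the same list Ckm, the muscle creatine kinase, stood at 0.01 ± 0.11 (adjusted p = 0.99). The list summed to 3393 to 3955 CPM in PKCε and 3714 to 3818 CPM in PKCδ libraries, and its part in the myosin values was not tested.

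**Figure D3:**
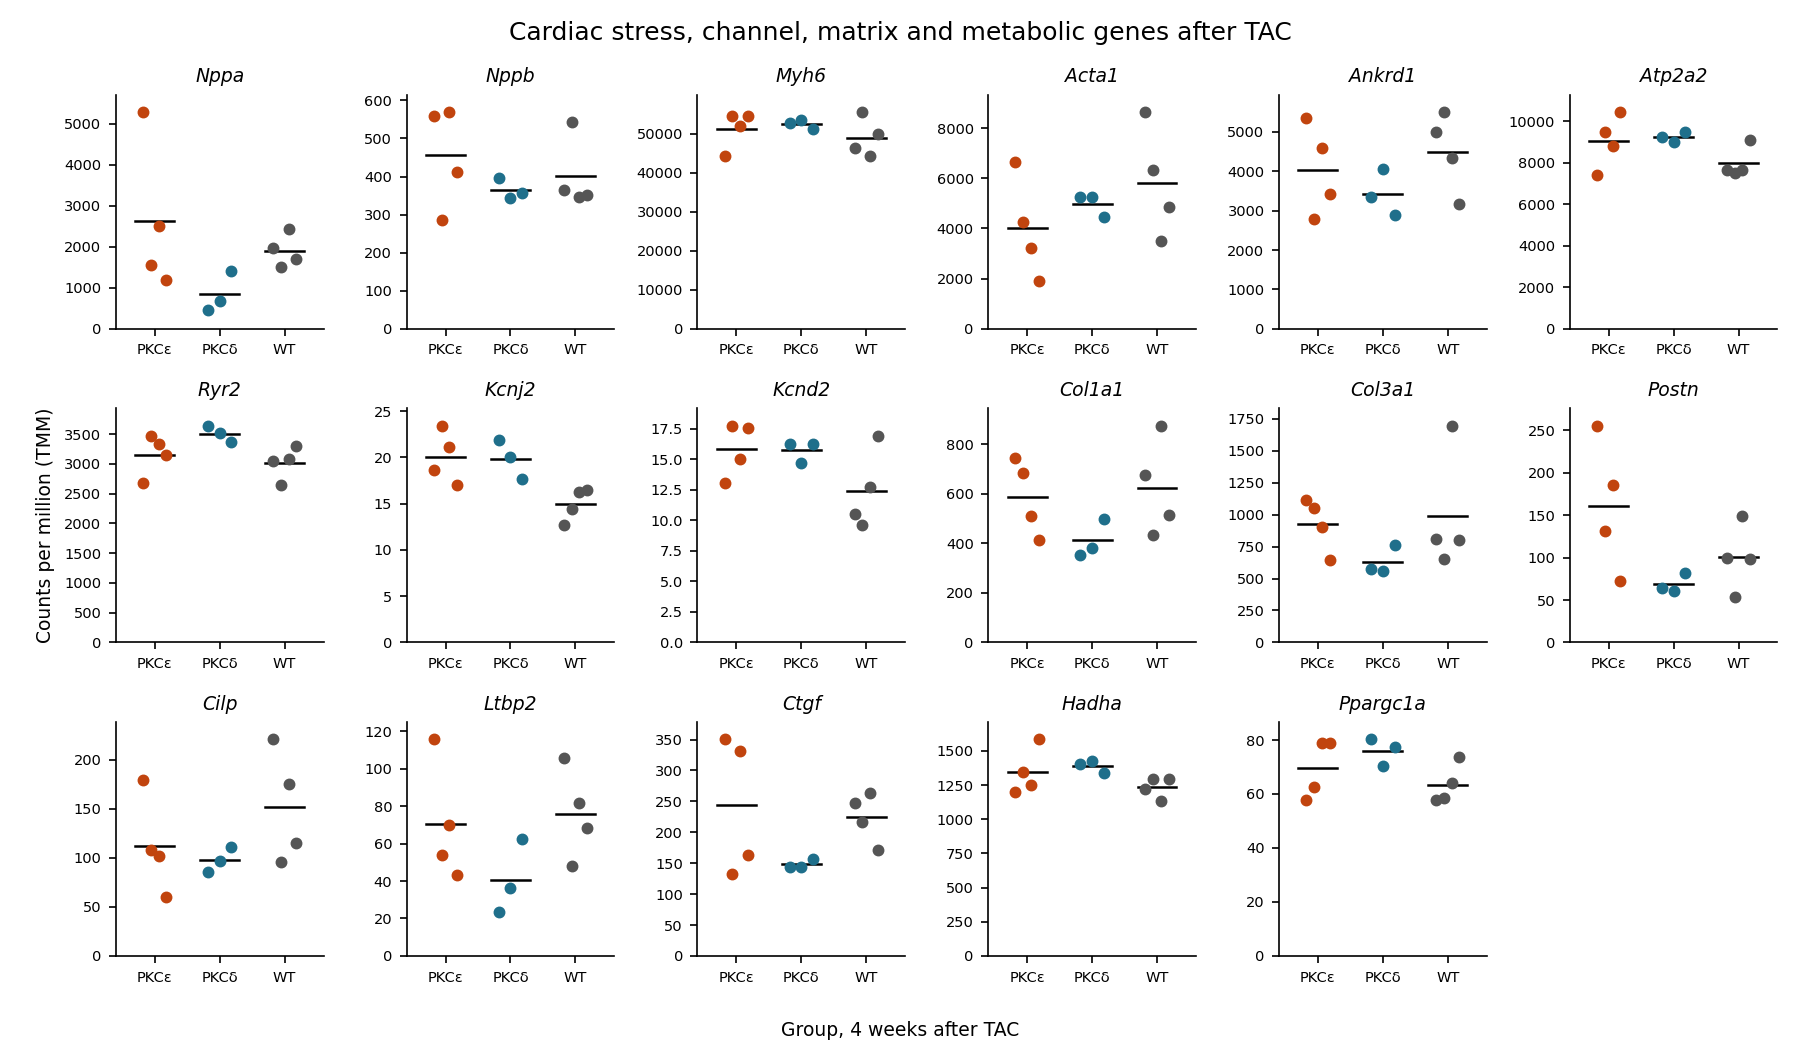
Levels in CPM after TMM scaling of 17 cardiac stress, channel, matrix and metabolic genes in PKCε, PKCδ and wild-type hearts after TAC. Points are libraries and bars are group means. Groups overlap in all 17, with PKCε points spread from 1195 to 5275 for Nppa and from 72.7 to 255 for Postn.

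Wdr92, a WD-repeat protein known from the assembly of axonemal dynein, was among the higher genes (chromosome 11, 17211893 to 17235200). It held 79.9, 86.6, 118 and 222 CPM in PKCε libraries, against 17.3, 18.3 and 16.6 CPM in PKCδ libraries. The PKCδ libraries were nearly alike, and library 4 of PKCε was highest. The log2 fold change was 2.86 ± 0.39 (adjusted p = 0.0019). In unstressed hearts it was -0.75 ± 0.37 (adjusted p = 0.38), with 36.3 to 77.2 CPM in PKCε and 82.2 to 136 CPM in PKCδ hearts. Its exons share 462 bases with Ppp3r1 on the same strand, so its level is uncertain, and Ppp3r1 stood at 0.15 ± 0.13 (adjusted p = 0.89).

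Transcription factor, matrix and guidance genes were among the other higher genes. Irx5, an Iroquois homeobox factor that in mouse represses the potassium channel gene Kcnd2 and shapes ventricular repolarization (chromosome 8, 92357796 to 92361456), held 8.51, 5.65, 6.48 and 5.50 CPM in PKCε libraries, against 2.92, 3.13 and 3.51 CPM in PKCδ libraries. It was higher by 1.04 ± 0.17 (adjusted p = 0.0053). Kcnd2 itself stood at 0.01 ± 0.14 (adjusted p = 1), with 13.1, 17.7, 15.0 and 17.5 CPM in PKCε and 16.3, 14.7 and 16.2 CPM in PKCδ libraries. Fn1, fibronectin, the adhesive protein on which other matrix assembles (chromosome 1, 71585473 to 71653280), held 299, 321, 293 and 236 CPM in PKCε libraries, against 140.0, 148 and 191 CPM in PKCδ libraries. It was higher by 0.85 ± 0.16 (adjusted p = 0.027). Ntn1, netrin-1, a secreted guidance cue of axons and vessels (chromosome 11, 68209364 to 68386826), held 221, 217, 247 and 204 CPM in PKCε libraries, against 117, 127 and 143 CPM in PKCδ libraries. It was higher by 0.79 ± 0.15 (adjusted p = 0.019). Fras1, an extracellular protein under epithelial basement membranes (chromosome 5, 96373777 to 96784733), was low, at 2.22, 2.05, 1.86 and 1.59 CPM in PKCε and 0.648, 0.533 and 1.01 CPM in PKCδ libraries (1.40 ± 0.24, adjusted p = 0.0087). Each of these 4 was separated by a clear gap between the groups.

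The remaining higher genes differed by less than 2-fold but for one. The exception, 2610507I01Rik (chromosome 11, 59197793 to 59202431), held 8.45, 5.48, 10.3 and 11.1 CPM in PKCε libraries, against 2.14, 2.67 and 2.77 CPM in PKCδ libraries (1.79 ± 0.31, adjusted p = 0.0092). Rsad1, a radical SAM domain protein (chromosome 11, 94539798 to 94556862), held 17, 12.8, 17.1 and 15.0 CPM in PKCε libraries, against 10.05, 9.80 and 7.63 CPM in PKCδ libraries (0.75 ± 0.16, adjusted p = 0.042). Cyp2d22, a cytochrome P450 of a family with close copies, whose counts are therefore uncertain (chromosome 15, 82370527 to 82380260), held 25.8, 27.9, 26.1 and 30.9 CPM in PKCε libraries, against 16.1, 16.7 and 17.8 CPM in PKCδ libraries (0.71 ± 0.14, adjusted p = 0.019). Both groups were tight, and so they were for Clk1, a kinase of splicing factors (chromosome 1, 58411988 to 58424088). Clk1 held 24.6, 23.5, 20.4 and 24.1 CPM in PKCε libraries, against 14.6, 16.3 and 14.6 CPM in PKCδ libraries (0.61 ± 0.11, adjusted p = 0.015). Sccpdh, an oxidoreductase-like protein that did not pass, stood at 0.59 ± 0.13 (adjusted p = 0.054) without overlap.

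Besides Prkce and Myl4, 3 genes were lower. Asap2, a GTPase-activating protein for Arf proteins (chromosome 12, 21111368 to 21270171), held 42.7, 45.4, 40.8 and 44.6 CPM in PKCε libraries, against 62.4, 58.5 and 56.9 CPM in PKCδ libraries (-0.45 ± 0.09, adjusted p = 0.032). The difference was small and tight, but the call ended whichever of the 7 libraries was left out. Lrrc2, a leucine-rich repeat protein (chromosome 9, 110951545 to 110984066), held 248, 221, 207 and 147 CPM in PKCε libraries, against 308, 302 and 287 CPM in PKCδ libraries (-0.54 ± 0.11, adjusted p = 0.047). Gpr17, a G protein-coupled receptor known from oligodendrocyte precursors (chromosome 18, 31942999 to 31949890), held 10.6, 7.37, 11.6 and 10.04 CPM in PKCε libraries, against 16.9, 16.7 and 14.1 CPM in PKCδ libraries (-0.69 ± 0.14, adjusted p = 0.034). Asap2 and Gpr17 share exon bases with opposite-strand genes, Itgb1bp1 (402 bases) and Lims2 (188 bases). So do the higher genes Fn1, with Apol7d (292 bases), and Fras1, with Gm42604 (159 bases). The levels of these genes are uncertain without strand. Asap2 also shares bases with same-strand RNA genes, among them Gm5977 (481 bases).

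The 7 lower genes of smallest p that did not pass, among those without overlap, are given next. Trib2, a pseudokinase, stood at -0.52 ± 0.12 (adjusted p = 0.059), Vsig2, an immunoglobulin-domain protein, at -0.81 ± 0.18, Pde8b, a phosphodiesterase of cyclic AMP, at -0.80 ± 0.18, and Tbx3, a transcription factor of the conduction system, at -0.48 ± 0.11 (adjusted p = 0.061 each). Tbx3 held 17, 18.7, 18.7 and 16.9 CPM in PKCε libraries and 24.8, 22.3 and 27.4 CPM in PKCδ libraries. AA465934 held 8.45, 0.886, 1.10 and 2.23 CPM in PKCε and 34.0, 31.7 and 27.0 CPM in PKCδ libraries (-3.28 ± 0.70, adjusted p = 0.061), the widest of the 7. Dnajc27 and Pald1 stood at -0.51 ± 0.12 and -0.38 ± 0.09 (adjusted p = 0.073 and 0.076).

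Matrix genes leaned upward in PKCε hearts, with a wide spread and 1 call by edgeR. Of 31 matricellular and elastic fibre genes Fn1 was called, 26 had a positive fold change and the median was 0.39, while 7324 of all 13765 genes were positive. At an unadjusted p below 0.05 by edgeR there were 17 of the 31, against 1094 of all 13765. In 9 of the 31 every PKCε library lay above every PKCδ library, which 5.52% of all genes did. Thbs4, thrombospondin-4 of stressed muscle, held 149, 56.5, 94.8 and 54.2 CPM in PKCε libraries and 16.9, 28.7 and 45.9 CPM in PKCδ libraries (1.54 ± 0.41, adjusted p = 0.18). Fbln5, an elastic fibre protein, held 31.1, 30.5, 33.5 and 26.3 CPM in PKCε libraries and 21.8, 23.4 and 24.2 CPM in PKCδ libraries (0.39 ± 0.10, adjusted p = 0.11). Sparcl1, a relative of osteonectin, gave the same difference (0.39 ± 0.10, adjusted p = 0.15). Postn, periostin of activated fibroblasts, held 255, 131, 185 and 72.7 CPM in PKCε libraries and 63.6, 60.6 and 81.3 CPM in PKCδ libraries, so that only PKCε library 4 overlapped (1.24 ± 0.40, adjusted p = 0.33). Ltbp2, a TGF-β binding protein of microfibrils, stood at 0.80 ± 0.38 (adjusted p = 0.61), Cilp, a cartilage matrix protein induced in loaded heart, at 0.20 ± 0.31 (adjusted p = 0.95) and Ctgf, a matricellular growth factor, at 0.72 ± 0.41 (adjusted p = 0.73).

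Of 16 fibrillar and other collagens 15 had a positive fold change, yet edgeR called 0 (7 at an unadjusted p below 0.05), none was free of overlap, and the median was 0.41. Col1a1 held 742, 685, 511 and 414 CPM in PKCε libraries and 354, 380.4 and 499 CPM in PKCδ libraries (0.52 ± 0.25, adjusted p = 0.64). Col3a1 held 1111, 1048, 904 and 646 CPM in PKCε libraries and 577, 561 and 761 CPM in PKCδ libraries (0.55 ± 0.30, adjusted p = 0.69). In both, PKCε library 4 lay within the PKCδ range and libraries 1 and 2 were highest. Col5a2 stood at 0.56 ± 0.21 (adjusted p = 0.43), Col12a1 at 0.99 ± 0.40 (adjusted p = 0.48), and Col6a1 at 0.34 ± 0.14 (adjusted p = 0.50). Small leucine-rich proteoglycans were positive in 11 of 11 tested genes, with 0 called by edgeR and 1 at an unadjusted p below 0.05 (median 0.18). Bgn, biglycan, held 1124, 780.2, 786 and 561 CPM in PKCε libraries and 477, 547 and 596 CPM in PKCδ libraries (0.59 ± 0.18, adjusted p = 0.29). Of 28 proteases, inhibitors and lysyl oxidases 25 were positive, with 0 called by edgeR and 7 at an unadjusted p below 0.05 (median 0.20), among them Loxl2, which cross-links collagen, at 0.48 ± 0.19 (adjusted p = 0.48). Of 24 TGF-β signalling genes edgeR called 0 (4 at an unadjusted p below 0.05, median -0.02), and of 20 basement membrane genes 0 (1 at an unadjusted p below 0.05, median 0.07). DESeq2 called 0 in these 5 lists. With the 7 libraries alone edgeR called 1 gene of the protease list.

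Markers of the cells that make or line the tissue were set beside these. In bulk RNA, fewer cells of a type and less RNA per cell cannot be told apart. Of 10 myofibroblast genes edgeR called 0 (3 at an unadjusted p below 0.05, median 0.52), and they summed to 383 to 595 CPM in PKCε and 357 to 481 CPM in PKCδ libraries. Tnc, tenascin-C of remodelling matrix, held 13.0, 18.1, 19 and 14.2 CPM in PKCε libraries and 6.22, 6.67 and 8.24 CPM in PKCδ libraries (1.19 ± 0.52, adjusted p = 0.55). Acta2, smooth muscle actin, which defines the state, stood at -0.21 ± 0.26 (adjusted p = 0.93). The 18 fibroblast genes had a median of 0.18 with 0 called by edgeR (2 at an unadjusted p below 0.05), and summed to 3661 to 5379 CPM in PKCε and 3792 to 4466 CPM in PKCδ libraries. Endothelial genes leaned the other way, with 17 of 19 negative, 0 called by edgeR, 6 at an unadjusted p below 0.05 and a median of -0.20. In 6 every PKCε library lay below every PKCδ library, which 5.09% of all genes did. They summed to 2160.4 to 2483 CPM in PKCε and 2461 to 2610.5 CPM in PKCδ libraries. Flt1, a VEGF receptor, held 163, 151, 172 and 161 CPM in PKCε libraries and 193, 185 and 191 CPM in PKCδ libraries (-0.23 ± 0.09, adjusted p = 0.45), and Tie1 and Egfl7 were likewise below. Pericyte and smooth muscle genes had 11 of 14 negative, 0 called by edgeR, 3 at an unadjusted p below 0.05 and a median of -0.16, with Kcnj8, an ATP-sensitive potassium channel subunit of pericytes, at -0.41 ± 0.11 (adjusted p = 0.18) and Pdgfrb at -0.23 ± 0.07 (adjusted p = 0.30). DESeq2 called 0 genes in these 4 lists, and with the 7 libraries alone edgeR called 1 myofibroblast gene. Their part in the matrix values was not tested.

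**Figure D4:**
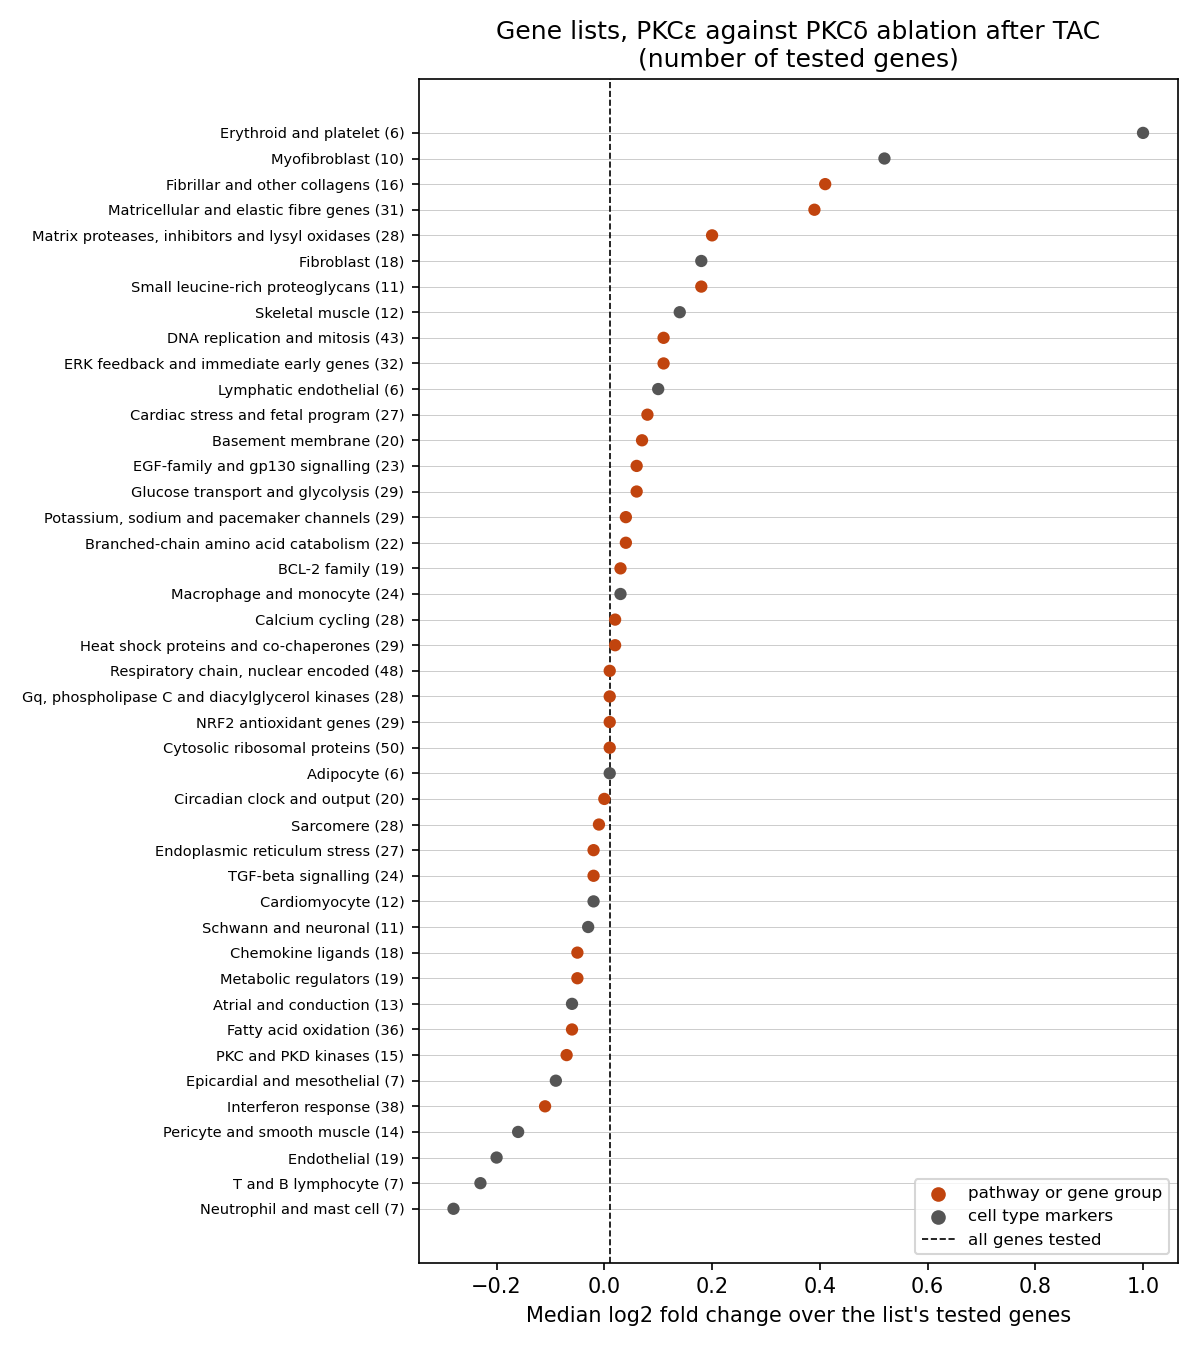
Median log2 fold change, PKCε over PKCδ after TAC, over the tested genes of 43 lists, with the number of tested genes in brackets. The dashed line is the median of all genes tested, 0.01. Collagens (0.41) and matricellular genes (0.39) lie to its right and endothelial genes (-0.20) to its left.

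Markers of blood and atrial cells were also set out. Of 6 tested erythroid and platelet genes 5 were positive, and edgeR called 0 (4 at an unadjusted p below 0.05, median 1.0, or 0.53 without PKCε library 1). Hba-a1, Hba-a2, Hbb-b1 and Hbb-b2, the defining globin genes, were at 0 counts in all 7 libraries. Reads aligned to more than 1 place were counted in no gene, so 0 counts in genes with close copies do not show that their RNA was absent. Alas2, the first enzyme of heme synthesis in red cells, held 42.7, 21.6, 17.4 and 21.3 CPM in PKCε libraries and 11.3, 11.4 and 11.9 CPM in PKCδ libraries (1.16 ± 0.26, edgeR adjusted p = 0.066), and DESeq2 called it higher, the 1 call in that list. Without the 2 libraries whose Prkce stood apart, and without PKCε library 3, edgeR called 1 gene of the list too. Of 13 atrial and conduction genes edgeR called Myl4 (median -0.06), and DESeq2 also called Nppa and Stk39 higher. Myl7, the defining atrial light chain, was near the floor, at 0.207 to 0.558 CPM in PKCε and 0.519 to 1.73 CPM in PKCδ libraries (-1.32 ± 0.64, adjusted p = 0.62). Sln, sarcolipin, which inhibits the calcium pump in atrium, had 0, 0, 0 and 1 counts in PKCε and 6, 13 and 16 counts in PKCδ libraries (adjusted p = 0.23). Stk39, a kinase acting on ion cotransporters, held 85.6, 95.5, 92.2 and 101 CPM in PKCε libraries and 69.1, 69.6 and 71.1 CPM in PKCδ libraries (0.42 ± 0.09, adjusted p = 0.059). Lymphocyte and neutrophil or mast cell markers had medians of -0.23 and -0.28 over 7 tested genes each, with 0 called by edgeR or DESeq2 and 1 in each list at an unadjusted p below 0.05.

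Calcium and channel genes gave no call by edgeR and 1 higher gene in each list by DESeq2. Of 28 calcium cycling genes edgeR called 0 (5 at an unadjusted p below 0.05, median 0.02), and DESeq2 called Cacna1g. With the 7 libraries alone, and without PKCε library 1, edgeR called 1 calcium cycling gene higher. Without the 2 libraries whose Prkce stood apart it called 1 higher and 1 lower. Of 29 potassium, sodium and pacemaker channel genes edgeR called 0 (7 at an unadjusted p below 0.05, median 0.04), and DESeq2 called Scn10a. Atp2a2, the SERCA2 pump, held 7397, 9479.8, 8805 and 10433 CPM in PKCε libraries and 9233, 9000.2 and 9503 CPM in PKCδ libraries (-0.03 ± 0.10, adjusted p = 0.97). Ryr2, the ryanodine receptor, stood at -0.15 ± 0.09 (adjusted p = 0.71) and Kcnj2, the inward rectifier of resting potential, at 0.02 ± 0.15 (adjusted p = 0.99). Cacna1g, a T-type calcium channel, held 29.7, 44.0, 43.7 and 41.2 CPM in PKCε libraries and 21.8, 21.7 and 20.6 CPM in PKCδ libraries (0.89 ± 0.21, adjusted p = 0.087). Camk2b lay below, at 9.40, 13.2, 11.1 and 10.9 CPM in PKCε libraries and 15.2, 16.6 and 15.7 CPM in PKCδ libraries (-0.50 ± 0.17, adjusted p = 0.32). Scn10a, a sodium channel whose locus is linked to conduction in human hearts, stood at 2.21 ± 0.54 (adjusted p = 0.10) and Kcne1, a subunit of the slow delayed rectifier, at 1.61 ± 0.48 (adjusted p = 0.28), both without overlap.

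Metabolic genes gave no call by edgeR, and DESeq2 called 1 of them lower, Lpin1. With the 7 libraries alone edgeR called 2 metabolic regulators lower, and without the 2 libraries whose Prkce stood apart 1 regulator lower and 1 glycolysis gene higher. At an unadjusted p below 0.05 there were 2 of 36 fatty acid oxidation genes and 0 of 48 of the respiratory chain. The counts were 4 of 19 for regulators and 8 of 29 for glycolysis, against 1094 of all 13765. Fatty acid oxidation genes were negative in 28 of 36 (median -0.06), with Hadha, a subunit of the trifunctional protein, at -0.04 ± 0.08 (adjusted p = 0.96) and Acaa1a, a peroxisomal thiolase, at -0.40 ± 0.13 (adjusted p = 0.29). Nuclear genes of the respiratory chain had a median of 0.01 over 48 genes. Among metabolic regulators (19 genes, median -0.05), Lpin1, which works with PGC-1α in mouse liver and makes diacylglycerol, held 183, 229.7, 228 and 234 CPM in PKCε libraries and 315, 308 and 299 CPM in PKCδ libraries (-0.49 ± 0.12, adjusted p = 0.094). Ppargc1a, the gene of PGC-1α, stood at -0.13 ± 0.15 (adjusted p = 0.92). Of 29 genes of glucose transport and glycolysis (median 0.06), 8 lay above without overlap (5.52% over all genes) and 3 below (5.09%), among them Pdk1, which restrains pyruvate oxidation, at 0.35 ± 0.09 (adjusted p = 0.14) and Slc2a4, the insulin-responsive glucose transporter, at -0.23 ± 0.07 (adjusted p = 0.28). In all, 27 of the 43 lists had no gene called by edgeR and a median between -0.11 and 0.11. At an unadjusted p below 0.05 they held 57 of 677 tested genes, both counted per list, against 1094 of all 13765. DESeq2 called 1 gene in each of 6 of the 27 lists. Besides those named they include genes of ERK feedback (0.11), EGF-family signalling (0.06), interferon response (-0.11), chemokines (-0.05), heat shock (0.02), endoplasmic reticulum stress (-0.02), NRF2 (0.01), the BCL-2 family (0.03), the clock (0), branched-chain amino acids (0.04), cytosolic ribosomal proteins (0.01), macrophages (0.03), lymphatic endothelium (0.10), Schwann and neuronal cells (-0.03), adipocytes (0.01) and epicardium (-0.09). DNA replication and mitosis genes had a median of 0.11 over 43 genes. Cenpf in that list and Hspa1b among heat shock genes were called by DESeq2.

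The same genotypes were then compared without TAC, from libraries that the comparison above does not share. All were labelled male, yet the PKCδ libraries held Xist at 143, 135 and 154 CPM, with Ddx3y at 0. In the PKCε libraries Xist stood at 53.7, 1.47 and 168 CPM and Ddx3y at 22.7, 26.8 and 0 CPM. Genotype and these transcripts are therefore partly confounded without TAC. In unstressed PKCε against PKCδ hearts (n = 3 each) 256 genes were called (1.86%), 123 higher and 133 lower, against 16 after TAC. Of the 16, 4 were also called unstressed, among them Prkce (-2.36 ± 0.34), Cyp2d22 (0.74 ± 0.15) and Myh7 (4.61 ± 0.47), and 12 had the same direction. Across all genes the log2 fold changes of both conditions correlated weakly (Pearson r = 0.157 over 13765 genes, which are not independent replicates), and over the 256 genes called unstressed r was 0.517. Those 256 were picked by their unstressed values, so a smaller fold change after TAC follows in part from that choice. Their median absolute log2 fold change was 0.72 unstressed and 0.14 after TAC, and 149 kept their direction. Over all genes tested the median was 0.14 unstressed and 0.1 after TAC, and 6930 of 13765 had the same direction.

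A test of the difference itself, the fold change after TAC minus that without, called 73 genes (0.53%), 51 with a more positive and 22 with a more negative value after TAC. Myh7 was more negative (-2.48 ± 0.55, adjusted p = 0.044). Its unstressed levels were 2373 to 4292 CPM in PKCε and 129 to 146 CPM in PKCδ hearts, and the PKCε range overlapped that after TAC while the PKCδ range lay below. Wdr92 (3.60 ± 0.53, adjusted p = 0.0033), Fras1 (2.39 ± 0.36, adjusted p = 0.0018), Irx5 (1.04 ± 0.25, adjusted p = 0.049) and Sccpdh (0.86 ± 0.19, adjusted p = 0.028) were more positive. For Irx5 the unstressed difference was 0.00 ± 0.18, with 4.68 to 5.21 CPM in PKCε and 4.16 to 6.29 CPM in PKCδ hearts. Cenpf, a kinetochore protein of dividing cells, had a difference of opposite signs (1.62 ± 0.25, adjusted p = 0.0019). It held 9.46, 11.7, 9.11 and 14.5 CPM in PKCε libraries after TAC and 5.83, 5.80 and 7.03 CPM in PKCδ libraries (0.84 ± 0.18, adjusted p = 0.054), and was lower in unstressed PKCε hearts (-0.77 ± 0.17, adjusted p = 0.011). Scn10a gave 3.51 ± 0.68 (adjusted p = 0.015), Tbx3 -0.69 ± 0.16 (adjusted p = 0.042) and Rxra, the retinoid X receptor α, -0.43 ± 0.10 (adjusted p = 0.046). Sex-linked transcripts differed between these unstressed groups as well, with a list median of 7.85 over 5 genes unstressed and -0.88 after TAC, and the difference was called in 29 genes with the sex label as a term and in 122 with the Y-linked score. Without PKCδ TAC library 1, 2 or 3 it was called in 17, 23 and 43 genes, and without PKCε TAC library 1, 2 or 3 in 46, 47 and 48.

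**Figure D5:**
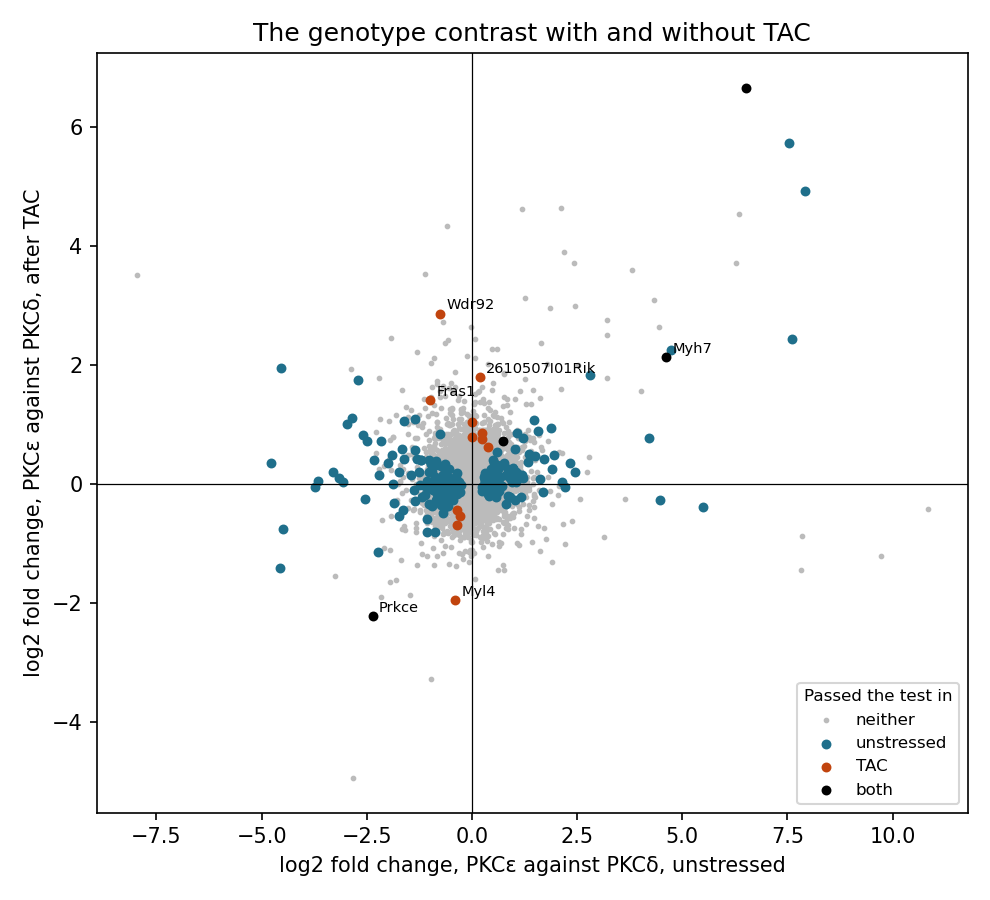
Log2 fold change of PKCε over PKCδ hearts without TAC (horizontal) and after TAC (vertical) for the 13765 genes tested, coloured by where they passed the test. Names mark 6 of the genes called after TAC, those described in the text that lie at 1.2 or more from 0. Myh7 and Prkce keep their sign in both conditions, while Wdr92 and Fras1 do not.

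Wild-type hearts after TAC (n = 4) place the values of the ablated hearts. These comparisons share the PKCε and PKCδ libraries with the one above, so values are given side by side only. PKCε against wild type gave 6 called genes (0.0436%), 3 higher and 3 lower. PKCδ against wild type gave 0 (0%) by edgeR's test, with 789 genes at an unadjusted p below 0.05, a smallest adjusted p of 0.55, and 1 gene called by DESeq2. Wdr92 stood at 2.63 ± 0.34 in PKCε hearts (adjusted p = 0.0019) and at -0.23 ± 0.38 in PKCδ hearts (adjusted p = 0.96) against wild type. For 2610507I01Rik the values were 1.47 ± 0.27 in PKCε hearts (adjusted p = 0.033) and -0.32 ± 0.33 in PKCδ hearts (adjusted p = 0.92). For Prkce they were -1.90 ± 0.28 in PKCε hearts (adjusted p = 0.0054) and 0.32 ± 0.27 in PKCδ hearts (adjusted p = 0.91). Irx5 and Fn1 had their larger difference from wild type on the PKCδ side, without passing. Irx5 stood at 0.22 ± 0.15 in PKCε hearts (adjusted p = 0.58) and -0.81 ± 0.17 in PKCδ hearts (adjusted p = 0.55), and Fn1 at 0.12 ± 0.15 (adjusted p = 0.82) and -0.73 ± 0.16 (adjusted p = 0.55). Myh7 lay on both sides, at 0.83 ± 0.35 in PKCε hearts (adjusted p = 0.37) and -1.30 ± 0.39 in PKCδ hearts (adjusted p = 0.85), with 938 to 3863 CPM in wild type. Pdgfrb was lower in PKCε hearts than in wild type (-0.35 ± 0.07, adjusted p = 0.046) and stood at -0.12 ± 0.07 in PKCδ hearts (adjusted p = 0.88).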

How the data were processed

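Polyadenylated RNA of ventricular apexes had been sequenced as single-end, non-stranded libraries, per the labels' protocols. The authors deposited whole-number read counts per gene symbol for each of the 29 libraries. The submitters' processing notes name mm10, TopHat2 2.0.10, Bowtie2, HTSeq, DESeq and edgeR, and the role of each is not given in the sources used here. The deposited count files held 23420 genes. Their 5 closing lines, which sum reads assigned to no gene, did not enter library sizes. Reads on more than 1 gene came to 0.776% to 0.942% and reads aligned to more than 1 place to 8.01% to 14.2%. The table of the whole series held the same counts for 23391 shared gene names (0 differing).

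Counts were fitted with edgeR 4.0.16 (TMM scaling, filterByExpr, robust quasi-likelihood test, limma 3.58.1, R 4.3.3) over all 29 libraries in 8 groups with no covariate, which left 13765 genes and 21 residual degrees of freedom. P-values were adjusted by the Benjamini-Hochberg method over all genes tested, and an adjusted p below 0.05 was called. The scripts were first tested on simulated counts with known changes. Libraries are separate samples by their labels, which do not say more of their origin, so a p-value rests on how much these libraries varied, which may be technical. Replicates of a group differed by more than sampling noise. The chi-square per degree of freedom was 2.45 to 5.1 between PKCδ TAC libraries and 9.06 to 34.3 between PKCε TAC libraries. PKCε libraries thus varied more, while the fit took the same spread of a gene for all groups. Intervals were not needed for single shares, and SE covers both counting and library spread.

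Genes named were Prkce and Prkcd, up to 12 called genes per direction by fold change whose groups did not overlap and whose mean log2 CPM reached 2 (filled to 12 by smallest p), up to 4 genes of smallest p in each list and a cardiac panel. Other genes named, Prkca, Prkcb, Prkch, Ckm, Acta2, Myl7, Ddx3y, Ppp3r1 and those around Rsad1, were chosen after their values were seen. The comparison, the members and the 44 lists were chosen with earlier results of these data known. Positions (13715 of 13765 genes) and promoters are RefSeq GRCm38.p6 and exon overlaps GENCODE. Motifs and tables used Python 3.11.15 and pandas 2.3.3, and figures matplotlib 3.10.9. Alternatives were RLE size factors, no filter, the sex label or a Y-linked score as a term, libraries labelled male, a replicate block, other sets of libraries in the fit, DESeq2 1.42.0, and leaving out each library. A few genes, 1 of the called ones among them, are counted in the totals and are not reported here.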

Additional observations from a re-analysis of the deposited data

Results flagged for a closer look

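Among 50 groups of 4 libraries checked for a lone value (a gap to its neighbour that takes up most of the group's range, by Dixon's test), 2 stood out, where chance gives about 1 in 20. Prkce was highest in replicate 2 of the combined-ablation TAC hearts, at 31.5 CPM, a library whose label says that both kinases were ablated. Prkcd was lowest in replicate 3 of the unstressed wild-type hearts, at 13.4 CPM.

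The test of whether the PKCε against PKCδ difference itself differed with TAC called 0.53% of all genes. Besides Cenpf, Scn10a and Rxra, it called 6 of the genes named for their difference after TAC or as cardiac genes, a choice made partly from the same values. The log2 fold change after TAC minus that without TAC was 3.60 for Wdr92, 2.39 for Fras1, 1.04 for Irx5 and 0.86 for Sccpdh, and it was -2.48 for Myh7 and -0.69 for Tbx3. Each passed edgeR's test of the difference over all genes, with adjusted p = 0.0033, 0.0018, 0.049, 0.028, 0.044 and 0.042 in that order.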

How the results depend on the processing

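The PKCε against PKCδ comparison after TAC called 16 genes. It called 16 with RLE size factors and 16 without the filter on low counts, 2 with the sex label as a term, 40 with the Y-linked score, 2 over libraries labelled male, 0 over the 15 TAC libraries, 56 over the 7 libraries alone, 59 without the 2 libraries whose Prkce stood apart, and 70 with DESeq2. Leaving out each library gave 2 to 27. Without TAC the count was 400 with DESeq2 and 239 to 267 on leaving out a library, against 256. The test of the difference called 29 genes with the sex label, 122 with the Y-linked score, 28 over libraries labelled male, 141 with DESeq2 and 17 to 80 on leaving out a library, against 73. PKCε against wild type called 12 with the Y-linked score, 46 over libraries labelled male, 0 over the 15 TAC libraries, 24 without the 2 libraries and 60 with DESeq2, and 3 to 12 on leaving out a library, against 6. PKCδ against wild type called 1 with DESeq2 and 0 otherwise. Over libraries labelled male a lone PKCδ TAC library was assumed to vary like the other groups. The cause of these differences was not tested.

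Of 201 named genes 17 turned sign under an alternative, none of them called. With the sex label Rpl38 stood at -0.02, Pparg at 0.05, Atp2a2 at 0.08 and Ppargc1a at 0.02. With the Y-linked score Plin4 stood at 0.02, Eif2s3y at 0.32, Xist at -0.72 and Kcnj2 at -0.08. Over libraries labelled male Rpl38 stood at -0.03, Cd4 at 0.07, Pparg at 0.22, Kcnj2 at -0.12 and Kcnd2 at -0.04. On leaving out each library Kcnd2 ran from -0.05 to 0.09, Kcnj2 from -0.07 to 0.09, Mcpt4 from -1.06 to 0.21, Per2 from -0.06 to 0.76, Pdpn from -0.01 to 0.32, Cidec from 0 to 1.21, Myh6 from -0.06 to 0.03, Atp2a2 from -0.11 to 0.05, Cilp from -0.11 to 0.41 and Hadha from -0.13 to 0.01. The medians of collagens (0.25 to 0.62) and endothelial genes (-0.23 to -0.11) kept their sign under every alternative.

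The replicate numbers are shared between groups but no label ties them to a litter, batch or day, and deviations of same-numbered libraries correlated at -0.138, 0.034 and 0.061. With the replicate block the comparison after TAC called 11 genes, all among the 16, and Kcnd2 stood at -0.03.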

Other observations

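Of the 16 called genes 5 lie on chromosome 11, which holds 8.49% of the genes tested. Around Rsad1, within 200 kb on each side, 3 of the 9 other tested genes were higher without overlap (5.52% over all genes), Cacna1g, Epn3 and Mycbpap, and 1 lower (5.09%). Epn3, a gene of the epsin family of endocytic adaptors, held 45.8, 42.9, 62.6 and 45.8 CPM in PKCε libraries and 8.10, 14.1 and 6.62 CPM in PKCδ libraries (2.36 ± 0.51, edgeR adjusted p = 0.067). Mycbpap, next to it, was low, at 1.1 to 1.72 CPM in PKCε and 0.203 to 0.333 CPM in PKCδ libraries (2.15 ± 0.52, adjusted p = 0.087). Xylt2, which starts proteoglycan sugar chains, lay below without overlap at -0.38 ± 0.10 (adjusted p = 0.14). Within 5 Mb of Prkce on chromosome 17, edgeR called 0 of 32 other tested genes (0.116% over all genes, smallest adjusted p = 0.42). Of these 32, 4 were higher (5.52% over all genes) and 1 lower (5.09%) without overlap. The region around Prkcd on chromosome 14 was not examined in this way.

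The heat shock genes Hspa1b, Hspa1a and Dnajb1 were highest in PKCε library 2 and next highest in PKCε library 4. Hspa1b held 2.54, 164, 1.93 and 14.0 CPM in PKCε libraries and 2.33, 1.13 and 2.09 CPM in PKCδ libraries (4.63 ± 1.55, adjusted p = 0.34). Its near-identical copy Hspa1a held 2.92, 150.1, 2.69 and 13.4 CPM in PKCε libraries and 3.63, 2.07 and 2.91 CPM in PKCδ libraries. Reads that align to both copies were counted in no gene, so the levels of Hspa1a and Hspa1b are uncertain. Dnajb1, their co-chaperone, held 21.4, 100.2, 15.1 and 27.8 CPM in PKCε libraries and 17, 15.7 and 14.7 CPM in PKCδ libraries (1.39 ± 0.53, adjusted p = 0.44).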
